A study of Homo sapiens with 18 samples.

Results

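The genes of the respiratory chain that are carried in the nucleus were examined in ES8, a Ewing sarcoma cell line, and Rh30, a fusion-positive alveolar rhabdomyosarcoma cell line. They were taken by name, as protein-coding genes whose symbol begins NDUF, SDH (*SDHA* to *SDHD*), UQCR, COX followed by a digit from 4 to 8, or ATP5, which gave 98 of the 57500 genes in the count tables. By complex they comprised 37 genes of complex I, 8 of its assembly factors, 4 genes of complex II, 9 of complex III, 19 of complex IV, 19 of complex V, and 2 read-through genes that join a respiratory chain gene to its neighbour. *NDUFA4* and *NDUFA4L2* were counted with complex IV. All cells carried dCas9-KRAB, a nuclease-dead Cas9 fused to a transcriptional repressor, which an sgRNA leads to a promoter (CRISPRi). In each line, the sgRNA of parental cells was a control (sgCTL) or was directed to *DNAJC17* (sgDNAJC17), and cells with the construct 3xFLAG-DNAJC17-dRRM, in which the RNA recognition motif of *DNAJC17* is deleted, received sgDNAJC17. Each of these 6 groups had 3 libraries (A, B and C) of polyadenylated RNA, taken after 72 hours of puromycin. Cells of a group were plated in triplicate, so p-values measure the spread between such platings, which may be technical. No library of dRRM cells with sgCTL was analysed here, so an effect of the construct and an effect of sgDNAJC17 in those cells cannot be told apart.

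The respiratory chain passes electrons from NADH (complex I) and succinate (complex II) through ubiquinone, complex III and cytochrome c to oxygen at complex IV. The protons moved by complexes I, III and IV drive ATP synthesis by complex V. Every complex but complex II holds subunits from both genomes. A handful of core subunits are encoded by mitochondrial DNA, while the nuclear genes give the remaining core subunits, many small accessory subunits, and all of complex II. Nuclear respiratory chain genes are transcribed from separate promoters, many of which bind NRF1 and the ETS factor GABP.

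Library totals ran from 35342393 to 48245989 counts. The sgRNA target fell in both lines, with 559, 583 and 625 counts of *DNAJC17* in ES8 sgCTL against 59, 77 and 67 in ES8 sgDNAJC17, and 474, 522 and 461 counts in Rh30 sgCTL against 113, 81 and 104 in Rh30 sgDNAJC17. The dRRM libraries held 13295 to 14449 counts on *DNAJC17* in ES8 and 9849 to 13947 in Rh30, which include the construct. All 6 Ewing sarcoma markers were higher in ES8 sgCTL, and 6 of 7 rhabdomyosarcoma markers were higher in Rh30 sgCTL, with 1 the other way. Within Rh30 the summed level of the rhabdomyosarcoma markers was 2900 to 2980 CPM in sgCTL, 2530 to 2747 in sgDNAJC17 and 1910 to 2120 in dRRM libraries, where CPM is the count scaled to a common library size by TMM. A list of 17 epithelial genes, a cell type that neither culture should hold, summed to 267 to 288 CPM in Rh30 sgCTL, 289 to 313 in sgDNAJC17 and 338 to 369 in dRRM libraries. The keratin gene *KRT8* rose with it, from 0.658 to 1.01 CPM in Rh30 sgCTL to 7.43 to 10.8 CPM in sgDNAJC17 and 8.10 to 10.1 CPM in dRRM libraries. Genes of the list were also present with sgCTL. The list summed to 308 to 314 CPM in ES8 sgCTL, and the keratin gene *KRT7* had 55.1 to 59.8 CPM in Rh30 sgCTL. In ES8 no epithelial gene was higher in every sgDNAJC17 library than in every sgCTL library, and 1 was lower. In Rh30 11 of 17 were higher and 1 was lower. These markers move with the Rh30 results below, and their part in them was not tested. In bulk RNA, a change in the mix of cells and a change in RNA per cell cannot be told apart.

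Respiratory chain transcripts were abundant in both lines before the knockdown. Levels of different genes were compared as TPM, counts per kilobase of exon, scaled to the same sum in every library. With sgCTL the 98 genes summed to 23993 ± 54.7 TPM (SD, n = 3) in ES8 and 23269 ± 835 TPM (SD, n = 3) in Rh30. In ES8 sgCTL, complex I held 7731 TPM, complex V 6686, complex IV 5941 and complex III 2721, while complex II held 408 and the complex I assembly factors 506. Rh30 sgCTL held 8119 TPM of complex I, 6144 of complex IV, 5199 of complex V, 2841 of complex III and 408 of complex II. *ATP5F1B*, which encodes the catalytic beta subunit of ATP synthase, was the most abundant in ES8 at 2957 ± 23.5 TPM (SD, n = 3), and stood at 1495 ± 18.2 TPM (SD, n = 3) in Rh30. *COX8A*, a small membrane subunit of complex IV, stood at 1779 ± 44.2 TPM (SD, n = 3) in ES8 and 2431 ± 34.8 TPM (SD, n = 3) in Rh30, where it was the most abundant. For both genes the spread over libraries was small beside the distance between the lines.

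**Figure D1:**
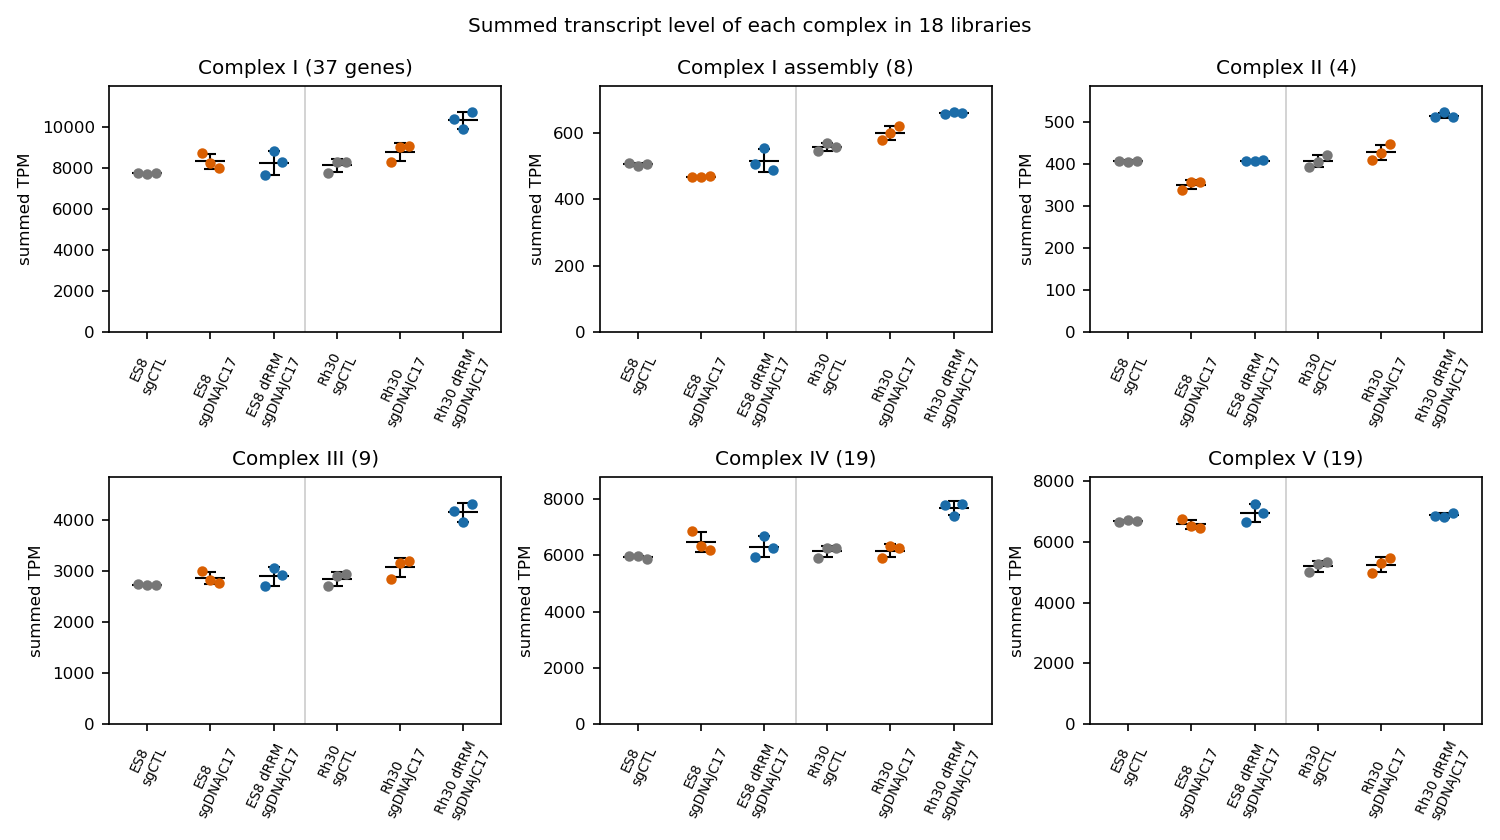
Summed TPM of the nuclear genes of each complex (vertical axis, starting at 0) in the 18 libraries. Each point is a library, and the bar and whiskers are the mean and SD of 3 libraries. For each of the 6 gene groups the 3 dRRM libraries of Rh30 lie above all other Rh30 libraries.

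The lines differed in the levels of these genes rather than in which were expressed, since 89 genes stood at 1 TPM or more in both. Most of them were called between the lines, as were most of all tested genes. In Rh30 sgCTL against ES8 sgCTL, 51 of the 90 genes past the filter on low counts were higher and 31 lower, where 42.0% of all tested genes were higher and 45.5% lower, and the median log2 difference was 0.36. *ATP5MC1*, one of the 3 genes that encode the same c subunit of the ATP synthase rotor ring, had 62.7, 61.3 and 63.9 CPM in ES8 and 215, 248 and 236 CPM in Rh30. That was the largest rise among well-counted members, at a log2 difference of 1.87 (SE 0.05, edgeR adjusted p = 1.47e-31). On the TPM scale the c subunit genes differed in their order, with *ATP5MC2* at 411 and *ATP5MC1* at 104 TPM in ES8 and *ATP5MC2* at 236 and *ATP5MC1* at 306 TPM in Rh30. *ATP5MC3* lay between them in ES8, at 165 TPM, and below them in Rh30, at 182 TPM. *ATP5F1A*, the alpha subunit of the same enzyme (1.40), and *NDUFB1*, an accessory subunit of complex I (1.46), were also higher in Rh30 on the log2 scale. Higher in ES8 were the complex I accessory subunit genes *NDUFC1* (log2 difference -1.83) and *NDUFB9* (-1.21) and the complex IV gene *COX6C* (-1.10), each with groups that did not overlap. Line, stock and any batch that follows the line cannot be told apart here, and a correction for gene length and GC content took the median from 0.36 to 0.10.

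**Figure D2:**
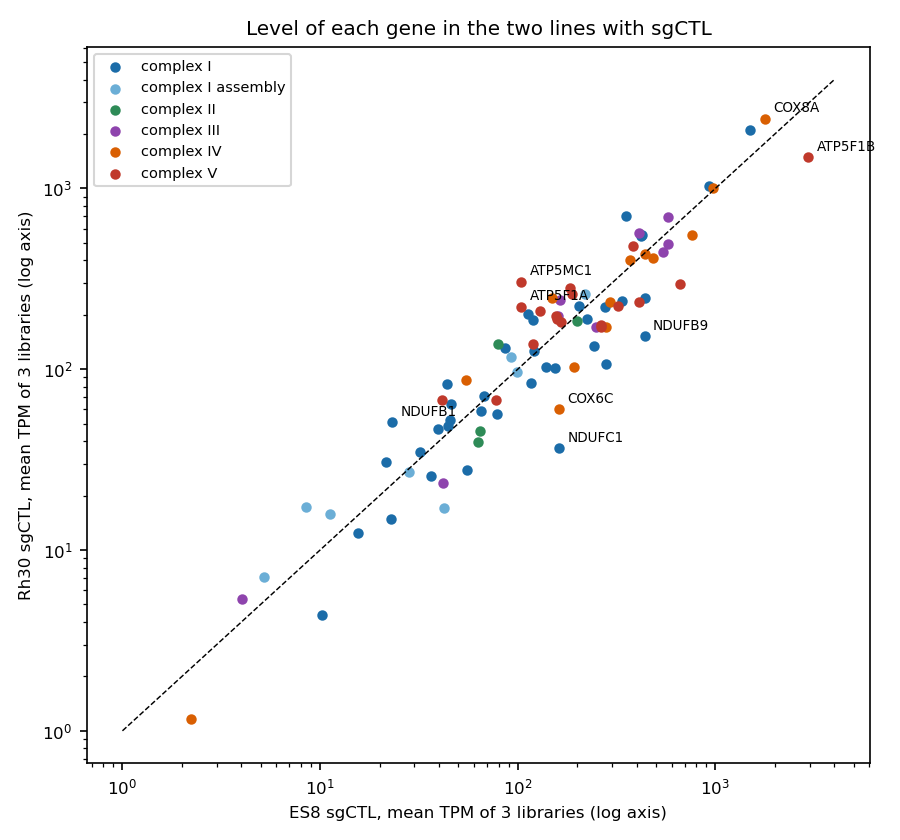
Mean TPM of each gene in ES8 sgCTL (horizontal log axis) against Rh30 sgCTL (vertical log axis), for the 89 genes at 1 TPM or more in both, colored by complex, with the dashed line marking equal levels. *ATP5MC1*, *NDUFB1* and *ATP5F1A* lie above the line and *NDUFC1*, *NDUFB9* and *COX6C* below it.

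Both lines used the common form of each complex IV subunit rather than the tissue form. *COX4I2*, *COX6A2*, *COX7A1* and *COX8C*, which encode isoforms known from lung, heart, muscle or testis, and *ATP5MGL*, a copy of *ATP5MG*, were below 1 TPM in each group with sgCTL, and *COX7B2* had no count in any library. *COX6B2*, the testis form of *COX6B1*, had 13, 15 and 24 counts in ES8 sgCTL and 3, 2 and 0 counts in Rh30 sgCTL. *COX6B1* itself had 164, 169 and 160 CPM in ES8 sgCTL. *NDUFA4L2*, a hypoxia-induced relative of *NDUFA4*, stood at 2.23 TPM in ES8 sgCTL beside 281 TPM for *NDUFA4*. *UQCRHL*, an intronless near-copy of *UQCRH*, stood at 4.02 TPM beside 577 TPM for *UQCRH*, and the split of reads between those genes is uncertain.

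In ES8, the *DNAJC17* knockdown raised many small nuclear subunits of complexes I, III and IV by modest amounts. Of 91 tested genes, 41 rose and 3 fell, where 13.6% of the 17143 tested genes rose and 13.8% fell, and the median log2 fold change was 0.20 against -0.02 over all genes. The rises were small, and the only gene past 2-fold was *ATP5MF-PTCD1*, a read-through gene with few counts, where 1.66% of all genes rose by at least 2-fold. Complex IV had 10 of 14 tested genes up and none down (median 0.28), complex III 5 of 9 up (0.21) and complex I 18 of 37 up and 1 down (0.21). Within complex I the 18 that rose were all among the 30 accessory subunits, and of the 7 core subunits none rose and 1 fell. Complex V had 4 of 18 up and 1 down (0.12), complex II had 1 up and 1 down of 4 (-0.13), and of the 8 complex I assembly factors 2 rose and none fell (0.03).

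*NDUFAF1*, an early assembly factor of complex I encoded at chr15:41387349-41402519 (GRCh38, minus strand), had 12.3, 10.8 and 11.5 CPM in ES8 sgCTL and 16.2, 17.4 and 18.3 CPM in sgDNAJC17. Its rise, a log2 fold change of 0.56 (SE 0.09, edgeR adjusted p = 0.00198), was the largest among well-counted members in ES8. *COX6C*, one of the small nuclear subunits that surround the catalytic core of complex IV, had 113, 111 and 116 CPM in sgCTL and 154, 155 and 147 CPM in sgDNAJC17. The groups lay far apart beside their spread, with a log2 fold change of 0.40 (SE 0.05, edgeR adjusted p = 0.000907). *COX6A1* (308, 298 and 299 CPM against 457, 391 and 373) and *COX6B1* (164, 169 and 160 CPM against 248, 212 and 203), subunits of the same complex, rose by 0.41 and 0.40 on the log2 scale. In both genes library A of sgDNAJC17 stood above B and C. *UQCR10*, a small subunit of complex III, went from 91.1, 91.4 and 92.7 CPM to 135, 118 and 109 CPM (log2 fold change 0.37).

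The 3 genes that fell in ES8 were *NDUFS7*, *ATP5MC1* and *SDHA*. *NDUFS7*, at chr19:1383527-1395589 (GRCh38, plus strand), encodes the core subunit with the last iron-sulfur cluster before ubiquinone. It had 95.6, 101 and 91.8 CPM in sgCTL and 88.4, 74.8 and 70.0 CPM in sgDNAJC17, a log2 fold change of -0.33 (SE 0.09, edgeR adjusted p = 0.0201). In the annotation 49.1% of its exonic bases are shared with a gene on the other strand, and the strand used in counting is not given in the sources used here. With a correction for gene length the fall was no longer called (-0.26, edgeR adjusted p = 0.088). The call was also lost without sgCTL A, sgCTL B, sgDNAJC17 B or sgDNAJC17 C (edgeR adjusted p = 0.0678, 0.0883, 0.0659 and 0.0623). *ATP5MC1*, at chr17:48892765-48895871 (GRCh38, plus strand), went from 62.7, 61.3 and 63.9 CPM to 54.9, 50.0 and 49.0 CPM. Its log2 fold change was -0.31 (SE 0.07, edgeR adjusted p = 0.00736), while the other c subunit genes *ATP5MC2* (0.30) and *ATP5MC3* (0.20) rose. *SDHA* is described with complex II.

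The ES8 count depended on which libraries were kept. Without sgCTL A, B or C, 17, 14 or 13 genes rose, and without sgDNAJC17 A, B or C, 52, 24 or 36 rose. The share of all genes that rose moved as well, to 7.93%, 8.27% and 7.61% without an sgCTL library and to 22.4%, 10.3% and 11.0% without an sgDNAJC17 library. With a correction for gene length alone 23 genes rose, where 14.4% of all genes did, with a median of 0.13. With GC content and length together 41 rose, where 22.3% of all genes did, with a median of 0.14. Genes that rose had a median exon length of 1815 bases, those that fell 7533 bases and those not called 3231 bases.

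In Rh30, the knockdown again raised more respiratory chain genes than it lowered, with assembly factors of complex I among the largest rises. Of 90 tested genes, 44 rose and 5 fell, where 16.1% of the 15391 tested genes rose and 16.2% fell, and the median log2 fold change was 0.22 against 0.00 over all genes. Libraries with the same letter deviated together in this comparison, and with the letter as a block 67 rose and 6 fell, where 23.5% of all genes rose. Of the 8 complex I assembly factors, 6 rose and none fell, with a median of 0.35. Complex III had 6 of 9 up and 1 down (0.28), complex IV 8 of 13 up and none down (0.24), complex I 15 of 37 up and 2 down (0.18), complex V 6 of 18 up and 1 down (0.17), and complex II 2 of 4 up and 1 down (0.23). As in ES8, the rises in complex I lay mainly among the accessory subunits, with 14 of 30 up and none down, against 1 up and 2 down of the 7 core subunits.

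*NDUFC2*, an accessory subunit in the membrane arm of complex I, had 22.6, 25.5 and 22.9 CPM in Rh30 sgCTL and 32.4, 38.2 and 39.0 CPM in sgDNAJC17, a log2 fold change of 0.64 (SE 0.09, edgeR adjusted p = 0.000183). *NDUFAF4*, an assembly factor, had 11.3, 13.6 and 13.0 CPM in sgCTL and 18.4, 19.3 and 20.6 CPM in sgDNAJC17 (log2 fold change 0.64, SE 0.09, edgeR adjusted p = 0.000251). Every sgDNAJC17 library stood above every sgCTL library for both genes. *NDUFAB1*, the mitochondrial acyl carrier protein and a complex I subunit, went from 98.6, 118 and 117 CPM to 140, 172 and 181 CPM (0.58). *NDUFAF5*, which modifies *NDUFS7* during assembly, rose by 0.51, and *NDUFV2*, the single core subunit that rose, by 0.49.

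The 5 genes that fell in Rh30 included 2 of the core complex I subunits. *NDUFV1*, which binds the flavin that takes electrons from NADH (chr11:67606852-67612535, GRCh38, plus strand), had 244, 246 and 244 CPM in sgCTL and 200.4, 199 and 181 CPM in sgDNAJC17. That fall was the largest, with a log2 fold change of -0.32 (SE 0.06, edgeR adjusted p = 0.00129). *NDUFS7* went from 59.6, 62.6 and 60.4 CPM to 50.9, 51.3 and 47.7 CPM (-0.27, SE 0.06, edgeR adjusted p = 0.00465). *UQCRC1*, a core protein of complex III, had 395, 427 and 435 CPM against 343, 361 and 336 CPM (-0.26), and *ATP5F1D*, the delta subunit of the ATP synthase central stalk, 112, 117 and 114 CPM against 97.7, 101 and 90.2 CPM (-0.23). The groups did not overlap for any of these 4 genes. With correction for gene GC content and length *NDUFS7* stood at -0.02 (edgeR adjusted p = 0.847), and *NDUFV1* (-0.18), *UQCRC1* (-0.17) and *ATP5F1D* (-0.14) were still called. The call of *ATP5F1D* was lost with all 18 libraries in 1 fit (-0.25, edgeR adjusted p = 0.0742) and without sgCTL B (edgeR adjusted p = 0.0595). The fifth, *SDHA*, is described with complex II.

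Leaving out a library moved the Rh30 count as well. Without sgCTL A, B or C, 21, 39 or 39 genes rose, and without sgDNAJC17 A, B or C, 69, 22 or 26 rose, while the share of all genes that rose went to 9.70%, 11.9% or 11.6% and to 20.3%, 9.45% or 11.7%. Correction for gene GC content and length took the median from 0.22 to 0.09 and the number that rose to 29, where 16.7% of all genes rose.

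Across both lines, 31 of the 89 genes tested in each rose in both knockdowns (34.8%), where 6.17% of all genes did. Without 1 sgCTL or sgDNAJC17 library of either line the count ran from 11 to 40. It was 13, 12 and 11 without ES8 sgCTL A, B and C, where 4.09%, 4.09% and 3.98% of all genes rose in both. It was 14 without Rh30 sgCTL A (4.25%), 13 and 18 without Rh30 sgDNAJC17 B and C (3.95% and 5.21%) and 17 without ES8 sgDNAJC17 B (4.68%). Both *NDUFS7* and *SDHA* fell in both lines (2.25% against 6.18% of all genes), and no respiratory chain gene was called in opposite directions, against 1.27% of all genes. The 2 joint falls depend on the corrections given for each gene and on which libraries are kept. The genes that rose in both were 12 of complex I, 8 of complex IV, 5 of complex III, 3 of complex V, 2 assembly factors and 1 of complex II. The 5 with the largest smaller change were *NDUFAF1* (log2 fold change 0.56 in ES8, 0.38 in Rh30), *UQCR10* (0.37 and 0.36), *UQCR11* (0.33 and 0.33), *NDUFAF5* (0.33 and 0.51) and *COX7A2L* (0.31 and 0.41), which encodes a factor that joins complexes III and IV into supercomplexes. The ES8 calls of *NDUFAF5* and *COX7A2L* were lost in 4 and 2 of the fits without 1 library, and the Rh30 call of *UQCR11* without sgDNAJC17 B. *NDUFAF1* had 13.4, 14.4 and 14.3 CPM in Rh30 sgCTL and 17.8, 18.4 and 17.9 CPM in sgDNAJC17. *UQCR10* had 146, 168 and 168 CPM in Rh30 sgCTL and 184, 222 and 204 CPM in sgDNAJC17.

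The difference between the lines was tested as an interaction over the 12 parental libraries. It called 5 of 92 genes, all with a higher knockdown effect in Rh30 than in ES8, where 5.23% of all genes were higher and 4.55% lower in Rh30, a share near that of the respiratory chain genes. The genes were *NDUFAF4* (difference in log2 fold change 0.64, edgeR adjusted p = 0.0261), *NDUFAF6* (0.59, edgeR adjusted p = 0.0212), *SDHD* (0.48, edgeR adjusted p = 0.0162), *ATP5MC1* (0.43, edgeR adjusted p = 0.0221) and *NDUFAB1* (0.40, edgeR adjusted p = 0.046). *NDUFAF6*, another assembly factor, had 8.02, 7.11 and 7.90 CPM in ES8 sgCTL and 6.69, 7.19 and 7.37 CPM in sgDNAJC17, but 11.2, 15.0 and 13.5 CPM in Rh30 sgCTL and 15.9, 18.2 and 18.7 CPM in sgDNAJC17. *ATP5MC1*, which fell in ES8, had 215, 248 and 236 CPM in Rh30 sgCTL and 220, 262 and 254 CPM in sgDNAJC17, with groups that overlapped. Without library A of Rh30 sgCTL, or without library C of ES8 sgCTL, none of the genes was called. The call of *SDHD* alone was left without ES8 sgCTL A, Rh30 sgDNAJC17 B or Rh30 sgDNAJC17 C, and there were 11 calls without Rh30 sgDNAJC17 A.

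**Figure D3:**
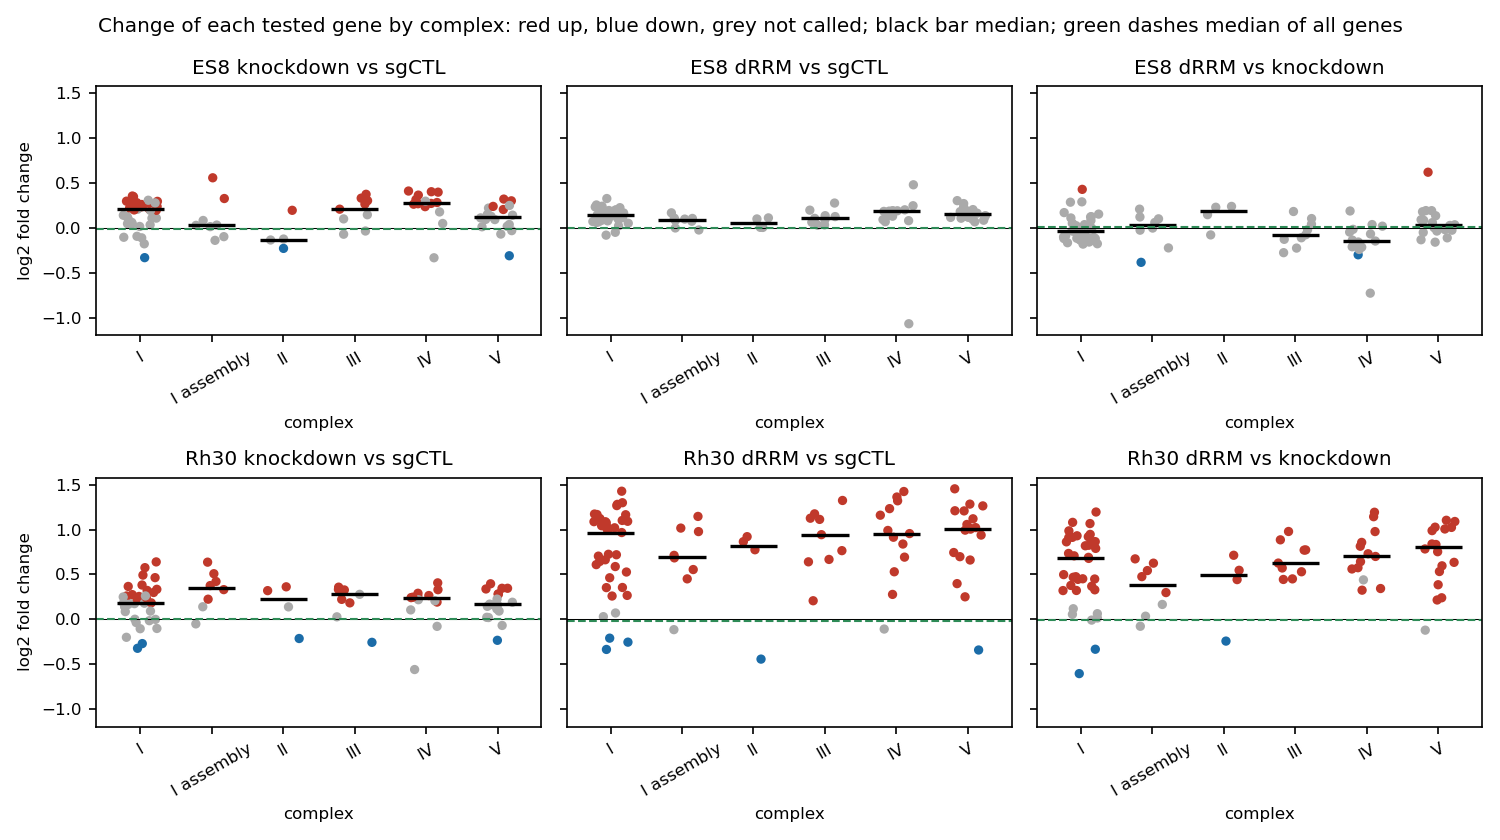
Log2 fold change (vertical axis) of each tested gene by complex (horizontal axis) in 6 comparisons, with genes that rose in red, those that fell in blue and those not called in grey. Black bars are the median of a complex and green dashes the median of all genes. In Rh30 dRRM against sgCTL the medians of the 6 gene groups lie between 0.70 and 1.01, while in ES8 dRRM against sgCTL no gene was called.

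In ES8, no respiratory chain gene was called between dRRM and sgCTL cells. None of 90 tested genes was called by edgeR or by DESeq2, where 0.0930% of all genes rose and 0.0814% fell, and the median log2 fold change was 0.13. At an unadjusted p under 0.05 there were 28, of which 27 were higher, where 13.4% of all genes passed in either direction and 6.80% were higher. The log2 fold change was above 0 for 85 of the 90 genes, a small shift in 1 direction without a call. Library A of the ES8 dRRM group had the lowest sum of the group, with 23867 TPM over the 98 genes against 26764 and 25333 in B and C, and without it 13 genes rose, where 1.30% of all genes did, with a median of 0.18. Without library B none rose and the median was 0.05. Without the filter on low counts 4 rose, where 0.594% of all genes did.

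Set against the knockdown, which shares its libraries with the comparison of knockdown with sgCTL, the ES8 dRRM cells differed in 5 of 91 genes, 2 higher and 3 lower, where 7.35% of all genes were higher and 7.36% lower. *ATP5MC1* had 65.7, 90.6 and 76.4 CPM in dRRM libraries, above all 3 knockdown libraries, with a log2 fold change of 0.62 (SE 0.12, edgeR adjusted p = 0.00579). *NDUFS7* was also higher (0.43, edgeR adjusted p = 0.0352), although its groups overlapped. *NDUFAF1* was lower, at 13.2, 13.7 and 12.2 CPM (-0.38), and so was *COX6C*, at 117, 133 and 115 CPM (-0.30). With the replicate letter as a block, of these 4 calls only that of *ATP5MC1* was kept. The third lower gene was the read-through gene *ATP5MF-PTCD1*.

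In Rh30, by contrast, the dRRM cells carried more respiratory chain transcript than either parental group. The 98 genes summed to 22311, 23658 and 23839 TPM in sgCTL, 22983, 24819 and 25045 TPM in sgDNAJC17, and 30384, 29205 and 30970 TPM in dRRM libraries. These sums did not overlap between dRRM and either parental group. Against sgCTL, 80 of 89 tested genes rose and 5 fell, where 33.8% of the 15442 tested genes rose and 35.0% fell, and the median log2 fold change was 0.94 against -0.01 over all genes. A total of 39 rose by at least 2-fold, where 6.66% of all genes did. The median was 1.01 for complex V (17 of 18 up, 1 down), 0.97 for complex I (32 of 37 up, 3 down), 0.96 for complex IV (12 of 13 up), 0.94 for complex III (9 of 9 up), 0.82 for complex II (3 of 4 up, 1 down) and 0.70 for the assembly factors (7 of 8 up).

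*ATP5MK*, a small membrane subunit of ATP synthase at chr10:103389041-103396466 (GRCh38, minus strand), had 59.3, 75.2 and 73.2 CPM in Rh30 sgCTL, 76.6, 86.4 and 96.8 CPM in sgDNAJC17 and 186, 176 and 193 CPM in dRRM libraries. Its log2 fold change of dRRM against sgCTL, 1.45 (SE 0.07, edgeR adjusted p = 2.34e-26), was the largest among well-counted members. *NDUFB9* had 103, 127 and 121 CPM in sgCTL, 127, 155 and 156 CPM in sgDNAJC17 and 308, 277 and 335 CPM in dRRM libraries (1.43 against sgCTL, SE 0.07, edgeR adjusted p = 9.86e-26). Both genes were highest in the dRRM group, with no overlap with either parental group. *COX7A2*, the common form of a small complex IV subunit (chr6:75237675-75250323, GRCh38, minus strand), had 52.4, 61.4 and 60.1 CPM in sgCTL and 155, 134 and 167 CPM in dRRM libraries (1.42, SE 0.07, edgeR adjusted p = 9.73e-26). *COX7B*, also of complex IV, had 189, 229.8 and 237 CPM in sgCTL and 514, 513 and 616 CPM in dRRM libraries (1.36). *ATP5PO*, which ties the head of ATP synthase to its peripheral stalk, had 60.0, 65.2 and 71.3 CPM in sgCTL and 153, 143 and 164 CPM in dRRM libraries (1.26).

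The rise was uneven within complexes I and V. Among the core subunits of complex I, 4 of 7 rose and 2 fell, with a median log2 fold change of 0.35, whereas 28 of 30 accessory subunits rose, with a median of 1.01. *NDUFS3* (1.02) and *NDUFV2* (1.00) rose with the accessory subunits, *NDUFS1* (0.46) and *NDUFS8* (0.35) rose less, and *NDUFS7* stood at 0.07 without a call. *NDUFV1* fell by 0.25. *NDUFS6*, the accessory subunit that fell, had 90.7, 98.8 and 92.1 CPM in sgCTL, 121, 128 and 115 CPM in sgDNAJC17 and 85.7, 71.1 and 80.7 CPM in dRRM libraries. It was the one accessory subunit of complex I with a rise in the knockdown (0.38) and a fall in dRRM cells (-0.21). In complex V the membrane part (5 of 5 up, median 1.21) and the peripheral stalk (4 of 4 up, 1.02) had higher medians than the catalytic head (4 of 5 up, 0.70), in which *ATP5F1B* rose by 0.25 and *ATP5F1D* fell by 0.34. These medians are descriptions, and the difference between parts was not tested. The log2 fold changes use TMM scaling and the TPM do not. Within a comparison these scales differ by a shift shared by all genes, abundant or not. In Rh30 dRRM against sgCTL the rises were therefore smaller as TPM, and some small ones were not rises on that scale. The most abundant genes of complexes IV and V are examples. *ATP5F1B* stood at 1495 TPM in Rh30 sgCTL, while no complex V gene had a mean above 1346 TPM in the dRRM group. *COX8A* stood at 2431 TPM in Rh30 sgCTL, while no complex IV gene had a mean above 2230 TPM in the dRRM group.

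Against the knockdown libraries, which also enter the comparison of knockdown with sgCTL, 76 of 90 genes were higher in Rh30 dRRM libraries and 4 lower, where 29.4% of all genes were higher and 30.5% lower. The median log2 fold change was 0.63, and 10 genes were higher by at least 2-fold, where 4.42% of all genes were. That count was 2 with scaling by library size alone, 5 with a gene length correction, 3 with GC content added to it, and 4, 6 and 16 without sgDNAJC17 A, dRRM C and dRRM B. Complex V had 17 of 18 higher (median 0.81), complex IV 12 of 13 (0.70), complex I 30 of 37 (0.68), complex III 9 of 9 (0.63), complex II 3 of 4 (0.49) and the assembly factors 5 of 8 (0.39). The 5 largest were *COX7A2* (1.19), *COX7B* (1.14), *ATP5MK* (1.10), *ATP5PO* (1.09) and *NDUFB9* (1.08). Among those lower in dRRM cells were *NDUFS6* (-0.60), *SDHA* (-0.24) and the read-through gene *NDUFC2-KCTD14*. The call of *SDHA* was lost with a gene length correction (-0.12, edgeR adjusted p = 0.147). It was also lost with GC content and length together (-0.05, edgeR adjusted p = 0.463). *NDUFC2* (-0.01) and *NDUFAF4* (0.03), the largest rises in the knockdown, were not called here.

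The difference between the lines in dRRM against sgCTL was tested as an interaction added after the data had been seen. It was higher in Rh30 for 74 of 90 genes and lower for 5, where 19.9% of all genes were higher and 21.5% lower, with a median difference of 0.77 on the log2 scale. The lower genes included *ATP5F1D* and *SDHA* (both -0.45), *NDUFV1* (-0.36) and *NDUFS6* (-0.32). Correction for gene GC content and length left 68 higher and 5 lower (median 0.52), where 3465 of all 18854 genes were higher and 3136 lower. In Rh30 dRRM against sgCTL that correction took the median from 0.94 to 0.62 and the number at 2-fold from 39 to 10. Scaling by library size alone, which shifted the median of all genes by -0.23, gave a median of 0.71 and 11 genes at 2-fold. Under either setting most genes still rose. The rhabdomyosarcoma and epithelial markers given above moved in the same Rh30 libraries, and their part was not tested.

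**Figure D4:**
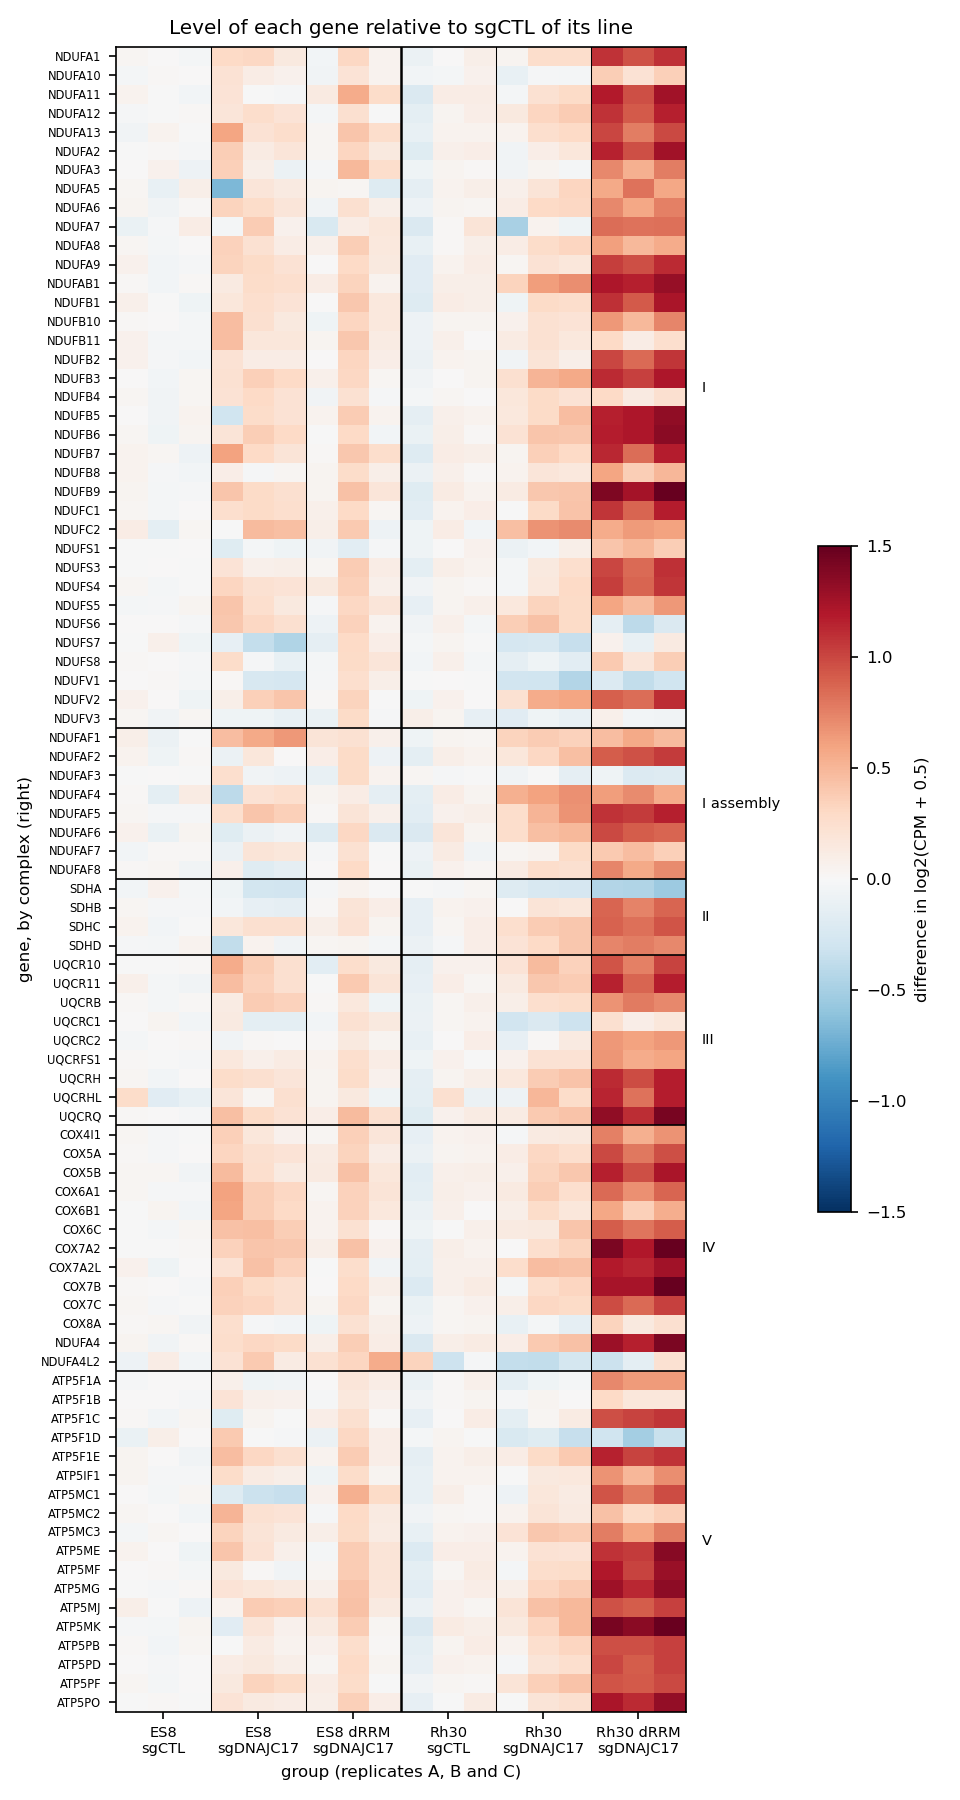
Level of 88 genes with a mean of at least 1 CPM in the 18 libraries, as the difference in log2(CPM + 0.5) from the mean of the sgCTL libraries of the same line, with rows ordered by complex and red for higher. The 3 columns of Rh30 dRRM are red for most genes, with *NDUFS6*, *NDUFV1*, *SDHA* and *ATP5F1D*, in blue.

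Complex II, the enzyme shared by the respiratory chain and the citric acid cycle, is made of 4 nuclear subunits which did not all move the same way. *SDHA*, the flavoprotein that oxidizes succinate (chr5:218241-256700, GRCh38, plus strand), had 121, 131 and 123 CPM in ES8 sgCTL, 120, 103 and 102 CPM in sgDNAJC17 and 123, 130 and 125 CPM in dRRM libraries. In Rh30 it had 111, 110 and 113 CPM in sgCTL, 97.2, 94.2 and 93.2 CPM in sgDNAJC17 and 81.6, 81.3 and 76.1 CPM in dRRM libraries, so that the 3 Rh30 groups did not overlap. It fell by 0.23 in the ES8 knockdown (SE 0.07, edgeR adjusted p = 0.0433), by 0.21 in the Rh30 knockdown (SE 0.06, edgeR adjusted p = 0.0109) and by 0.44 in Rh30 dRRM cells against sgCTL (SE 0.06, edgeR adjusted p = 4.32e-09), all on the log2 scale. The ES8 fall rests on libraries B and C, since library A at 120 CPM lay just under the sgCTL range, and it is a weak call. It was lost with DESeq2 (adjusted p = 0.0579), with DESeq2 size factors in edgeR (adjusted p = 0.0592), with the replicate letter as a block (edgeR adjusted p = 0.0581), with a gene length correction (-0.14, edgeR adjusted p = 0.285) and in 5 of the 6 fits without 1 library. With correction for gene GC content and length *SDHA* fell by 0.15 in Rh30 dRRM cells against sgCTL, still a call, and its Rh30 knockdown value of -0.11 was not called (edgeR adjusted p = 0.0864). The Rh30 knockdown call was also lost with a gene length correction alone (-0.14, edgeR adjusted p = 0.0668). Without Rh30 sgCTL C or Rh30 sgDNAJC17 B it was lost as well (edgeR adjusted p = 0.0527 and 0.0577). *SDHB*, the iron-sulfur subunit, had 122, 138 and 140 CPM in Rh30 sgCTL, 134, 152 and 150 CPM in sgDNAJC17 and 244, 223 and 244 CPM in dRRM libraries (0.87 against sgCTL). *SDHC*, a membrane anchor, rose in both knockdowns, by 0.20 in ES8 and 0.36 in Rh30, and by 0.92 in Rh30 dRRM cells. *SDHD*, the other anchor (chr11:112086773-112120013, GRCh38, plus strand), had 94.5, 99.6 and 108 CPM in Rh30 sgCTL, 115, 124 and 133 CPM in sgDNAJC17 and 167, 171 and 165 CPM in dRRM libraries. That was a log2 fold change of 0.32 in the knockdown and 0.78 in dRRM cells. In ES8, *SDHD* had 45.5, 44.9 and 47.6 CPM in sgCTL against 35.5, 47.7 and 44.3 CPM in sgDNAJC17, with library A below the others and no call (-0.14). *SDHB* in ES8 had a log2 fold change of -0.12, which was not called (edgeR adjusted p = 0.122).

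**Figure D5:**
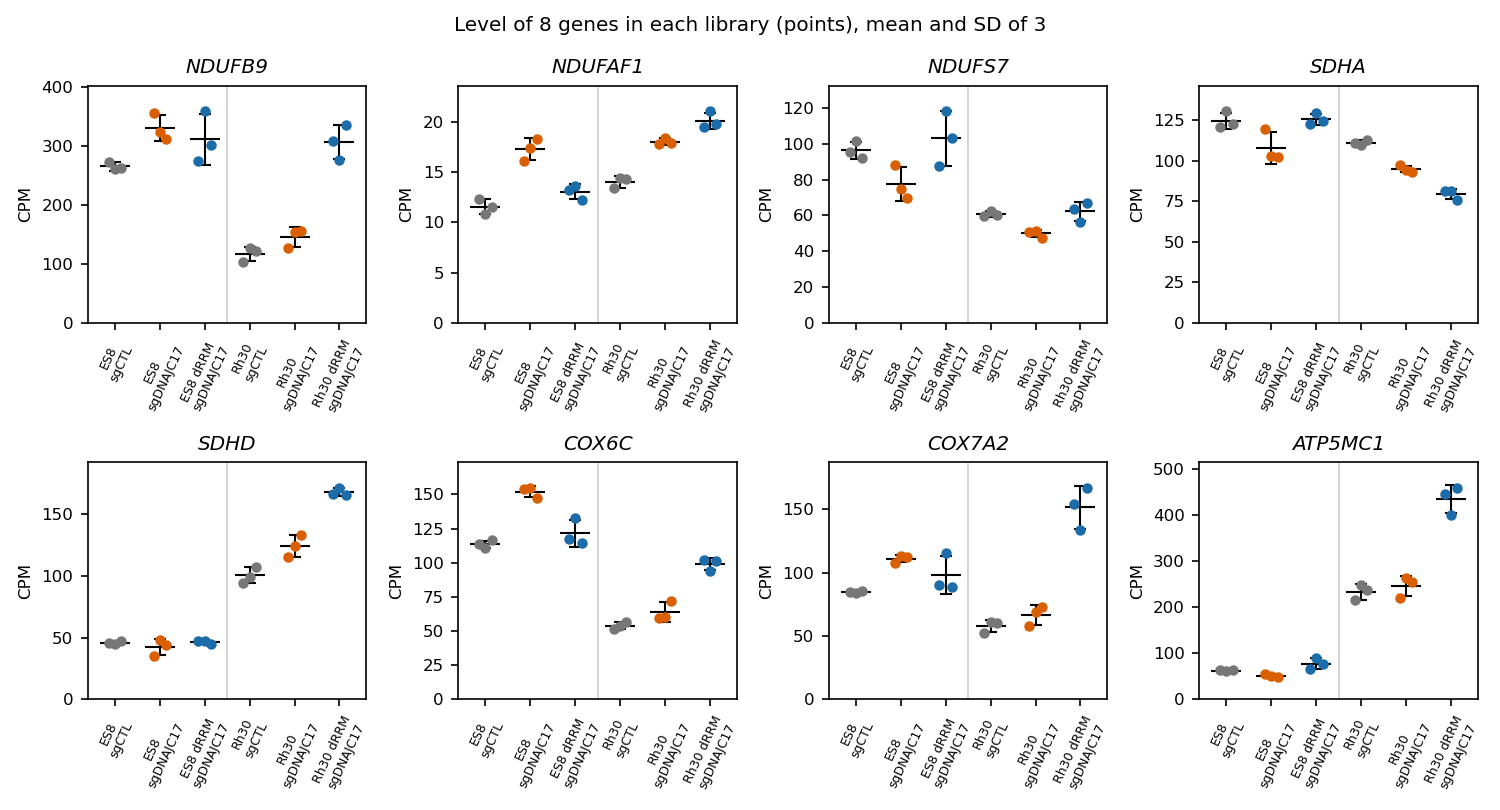
CPM (vertical axis, starting at 0) of *NDUFB9*, *NDUFAF1*, *NDUFS7*, *SDHA*, *SDHD*, *COX6C*, *COX7A2* and *ATP5MC1* in each library, with the mean and SD of 3. *SDHA* falls across the 3 Rh30 groups, from 111 to 94.9 to 79.7 CPM, whereas *NDUFB9*, *SDHD*, *COX6C*, *COX7A2* and *ATP5MC1* are highest, within Rh30, in the dRRM libraries.

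The 2 read-through genes had few counts. *NDUFC2-KCTD14* had 0, 1 and 0 counts in Rh30 sgCTL, 19, 15 and 11 counts in sgDNAJC17 and 2, 4 and 2 counts in dRRM libraries. *ATP5MF-PTCD1* had 12, 12 and 9 counts in ES8 sgCTL and 22, 15 and 19 counts in sgDNAJC17. All of the exonic bases of *NDUFC2-KCTD14* are shared with other genes, so its counts rest on how shared reads were assigned. Pseudogenes with the same name stems numbered 180 in the tables, and they held 0.05% to 0.085% of the count on the 98 genes in each library.

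The promoters of the nuclear genes were searched for the letters that NRF1 and GABP are known to bind. RefSeq promoters of GRCh38.p14, from 250 bases before to 50 bases after a start, were matched by symbol for 78 of the 98 genes, giving 96 promoters. The NRF1 letters GCGCANGCGC, searched on both strands, were found in 18 of the 96 promoters (18.8%), where 5.78% of all 35116 promoters hold them. The ETS letters CCGGAAG, to which GABP binds, were found on either strand in 25 of the 96 (26.0%), where 10.3% of all promoters hold them. In all, 40 promoters held at least 1 of the motifs and 3 held both. A match is a description of these letters and not of a bound site. By complex, the NRF1 letters stood in 4 of 7 promoters of complex III but in 1 of 16 of complex IV, where the ETS letters stood in 5. The stretches below show the letters of NRF1 in capitals, 5′ to 3′ on the strand of the gene, for *SDHA* and *UQCRC1*, which fell in the Rh30 knockdown, and for *SDHD*, *UQCR11* and *ATP5PO*, which rose in Rh30 dRRM cells. They lie at chr5:218242-218271 (plus), chr3:48609674-48609703 (minus), chr11:112086753-112086782 (plus), chr19:1605472-1605501 (minus) and chr21:33915809-33915838 (minus).
SDHA: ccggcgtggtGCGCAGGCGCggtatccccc
UQCRC1: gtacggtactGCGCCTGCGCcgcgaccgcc
SDHD: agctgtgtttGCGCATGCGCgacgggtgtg
UQCR11: ccctccccgcGCGCGTGCGCgccgcggccg
ATP5PO: acgccaacgcGCGCGTGCGCccttgcgcgt

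Those 5 matches lie 58, 37, 100, 19 and 14 bases before the RefSeq start. In the Rh30 knockdown, genes that fell (*SDHA* and *UQCRC1*) and genes that rose (*SDHD* and *UQCR11*) both carried them. *SDHA* and *SDHD* carry them within the same complex. In Rh30 dRRM cells against sgCTL *UQCRC1* rose, as did all 9 genes of complex III, and of the 5 shown only *SDHA* fell. The ETS letters, in capitals below, are shown for *ATP5MK*, *NDUFAF4*, *UQCR11* and *SDHD*, all of which rose in the Rh30 knockdown. *ATP5F1A*, also a named gene with these letters before its start, was not called in the Rh30 knockdown and is not shown. The choice of genes therefore links no direction of change to the letters. They lie at chr10:103396617-103396646 (minus), chr6:96898020-96898049 (minus), chr19:1605541-1605570 (minus) and chr11:112086785-112086814 (plus), where capitals that read CTTCCGG are the same letters on the other strand.
ATP5MK: gtgcaattcttCCGGAAGtgtgggcgggct
NDUFAF4: gccacctcccgCCGGAAGcggccctcgtgg
UQCR11: actgtaagtggCTTCCGGgtctgcgcgcac
SDHD: ccgcctctcgaCTTCCGGttcacccagcat

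Genes of the same pathway outside the name rule were taken as lists. The 13 subunits encoded by mitochondrial DNA moved differently from the nuclear genes between the lines. In the ES8 knockdown 11 rose and none fell, with a median log2 fold change of 0.60, where 13.6% of all genes rose and 13.8% fell. In ES8 dRRM against the knockdown none was higher and 10 were lower, where 7.35% of all genes were higher and 7.36% lower. In the Rh30 knockdown 4 rose and none fell (median 0.06), where 16.1% of all genes rose and 16.2% fell. In Rh30 dRRM against sgCTL, where 80 nuclear genes rose, 1 rose and 5 fell (-0.12). Of all genes 33.8% rose and 35.0% fell in that comparison. The interaction of line and knockdown was lower in Rh30 for 9 of 13 (median -0.54), where 4.55% of all genes were lower. All mitochondrial genes together took 1.10% to 1.13% of counts in ES8 sgCTL, 1.48% to 1.73% in sgDNAJC17 and 1.06% to 1.18% in dRRM libraries, and 0.556% to 0.617%, 0.572% to 0.678% and 0.439% to 0.486% in Rh30.

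Assembly factors outside the rule, of which 48 of 49 were matched, moved with the nuclear subunits in Rh30. In the Rh30 knockdown 24 rose and 3 fell, where 16.1% of all genes rose and 16.2% fell. In Rh30 dRRM cells against sgCTL 40 rose and 2 fell (median 0.76), where 33.8% of all genes rose and 35.0% fell. In the ES8 knockdown 7 rose and 3 fell, where 13.6% of all genes rose and 13.8% fell, so the rises there were near the share of all genes. The cytochrome genes *CYC1* (0.62) and *CYCS* (0.73), which carry electrons in and beyond complex III, both rose in Rh30 dRRM cells against sgCTL. Mitochondrial chaperones and proteases had 11 of 17 up and 3 down there, among the latter *LONP1* (-0.74), the main protease of the mitochondrial matrix. Of 16 regulators of mitochondrial gene expression, 8 rose and 4 fell in the same comparison, shares to be read beside the 33.8% of all genes that rose there and the 35.0% that fell. *TFAM*, which packages and transcribes mitochondrial DNA (0.81), and *GABPA*, the DNA-binding subunit of GABP (0.42), were among those up, and *POLRMT*, the mitochondrial RNA polymerase (-0.70), and the coactivator gene *PPARGC1B* (-0.78) among those down. Glycolysis, the route to ATP outside mitochondria, had 7 of 18 genes up and 10 down there, with a median of -0.21, and 1 up and 6 down in the ES8 knockdown, where 13.6% of all genes rose and 13.8% fell.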

How the data were processed

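The authors deposited raw counts per gene, made per the labels with Trimmomatic 0.36, STAR 2.5.2b and featureCounts (Subread 1.5.2) on GRCh38, without normalization. Here, genes were named by Ensembl identifier (55082 of 57500 matched; 2418 not). The members and lists were chosen with earlier results of these data known. Tests on the counts used edgeR 4.0.16 under R 4.3.3 (filterByExpr, TMM, quasi-likelihood test, two-sided), each comparison on its own libraries, with Benjamini-Hochberg adjustment over all genes tested, and a gene was called at an adjusted p under 0.05. TMM factors for CPM came from all 18 libraries. TPM used the exon lengths in the files and no TMM factor.

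Named genes were called members with a mean of at least 100 counts: the 5 with the largest change in each direction in the comparisons of knockdown with sgCTL and of dRRM with knockdown, the 3 largest elsewhere, the 3 smallest p in the interaction, the 5 largest called in both lines, complex II, tissue isoforms, read-through genes and *DNAJC17*. Others named were chosen after their values were seen. Of the epithelial list only the keratin genes are named.

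Same-letter Rh30 knockdown and sgCTL libraries had correlated deviations from their group means (0.577, 0.287 and 0.348 for A, B and C), so the letter was tried as a block. No pair of replicates agreed within sampling noise (chi-square per degree of freedom 2.63 to 31.8). DESeq2 1.42.0 was an alternative. The code was checked on simulated data. Proteins of isoforms were not analysed here. The values of 1 further gene are not reported here, though counts and sums include it.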

Additional observations from a re-analysis of the deposited data

Results flagged for a closer look

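The knockdown effect differed between the lines, by a test of the interaction, for *SDHD* (Rh30 minus ES8, 0.48 on the log2 scale), *NDUFAF6* (0.59), *ATP5MC1* (0.43), *NDUFAF4* (0.64) and *NDUFAB1* (0.40). These were 5 of 92 genes, a share near the 5.23% of all genes that were higher in Rh30, and none was called without Rh30 sgCTL A or without ES8 sgCTL C. For *SDHD* and *NDUFAF6* the gene rose in Rh30 and was not called in ES8, and *ATP5MC1* fell in ES8 and was not called in Rh30. The change of dRRM cells against sgCTL also differed between the lines, being higher in Rh30 for 74 members and lower for 5, where 19.9% of all genes were higher and 21.5% lower.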

How the results depend on the processing

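Directions of change held for the 52 named gene and comparison pairs under the alternatives run, and 9 of these lost a call under an alternative setting and 13 in a fit without a library. Fits without 1 library gave 13 to 52 genes up and 1 to 8 down in the ES8 knockdown, 0 to 13 up and 0 down in ES8 dRRM against sgCTL, 1 to 7 up and 0 to 5 down in ES8 dRRM against knockdown, 21 to 69 up and 4 to 5 down in the Rh30 knockdown, 80 up and 4 to 5 down in Rh30 dRRM against sgCTL, 75 to 76 up and 4 down in Rh30 dRRM against knockdown, 0 to 11 higher and 0 lower in the interaction, 11 to 40 up in both knockdowns, and 51 to 56 higher and 29 to 32 lower in Rh30 at baseline. Member medians changed sign in 3 such fits, to 0.00204 and 0.0221 in ES8 dRRM against knockdown (without sgDNAJC17 A and without dRRM A, in a range from -0.116 to 0.0221) and to -0.0676 in the interaction (without Rh30 sgCTL A, in a range from -0.0676 to 0.13). Below, the share of all genes called in that direction in the same setting is in brackets. Scaling by library size alone gave 5 down in the ES8 knockdown (17.4%) and 4 up in ES8 dRRM against knockdown (8.01%). It gave 8 down in Rh30 dRRM against sgCTL (46.8%) and 3 higher in the interaction (3.39%). A gene length correction gave 23 up in the ES8 knockdown (14.4%) and 1 up in ES8 dRRM against knockdown (8.27%). It gave 7 down in Rh30 dRRM against knockdown (30.1%) and 9 higher in the interaction (6.84%). GC content and gene length together, added after seeing the data, gave 8 down in the ES8 knockdown (3437 of all 17143 genes). That correction gave 10 up in ES8 dRRM against knockdown (15.5%) and 29 up in the Rh30 knockdown (16.7%). It gave 9 down in Rh30 dRRM against knockdown (30.4%), and 11 higher (11.1%) and 2 lower (6.30%) in the interaction. The replicate block gave 67 up in the Rh30 knockdown (23.5%). In ES8 dRRM against knockdown, where the letters did not pair the libraries, it gave 1 up (3.61%) and 1 down (4.30%). All 18 libraries in 1 fit gave 5 up (11.0%) and 8 down (12.4%) in ES8 dRRM against knockdown. No filter on low counts gave 4 up in ES8 dRRM against sgCTL (0.594%) and 1 lower in the interaction (3.27%). TPM scaled over nuclear protein-coding genes alone gave sums of 26437, 28220 and 27825 in ES8 sgCTL, sgDNAJC17 and dRRM, and of 24791, 25922 and 32194 in Rh30. The cause of these changes was not tested. Depth limits what can be said of genes with few counts, such as the tissue isoforms and read-through genes.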
